A study of Mus musculus with 24 samples.

Results

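The small heat shock proteins of muscle form the set described here: Hspb1, Hspb2, Hspb3, Hspb6, Hspb7, Hspb8 and Cryab. These 7 genes were chosen by symbol, without a threshold, from the 24043 gene symbols of the deposited expression table. Earlier results of these data were known when they were chosen. Their RNA was measured in C2C12 cells, an established mouse myoblast line that divides in growth medium and fuses into myotubes after serum is lowered. The series asked how low oxygen alters this step, and crossed 2 media with 2 oxygen concentrations. Growth medium was DMEM with fetal bovine serum, and differentiation medium was DMEM with horse serum and an insulin, transferrin and selenium supplement. Oxygen was 21% (NOR in the labels, normoxia) or 2% (HYP, hypoxia). The 4 groups were growth medium at 21% oxygen, differentiation medium at 21%, growth medium at 2% and differentiation medium at 2%, each with 2 libraries named replicate A and replicate B. All groups shared the 1 cell line, no genetic change was named, and no agent beyond the medium and the oxygen was named. The number of days in differentiation medium is not stated in the labels.

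Small heat shock proteins are chaperones that work without ATP: they bind unfolding proteins through a conserved alpha-crystallin domain and hold them until larger, ATP-driven chaperones such as Hspa8 refold them. In striated muscle several of them sit at Z-discs, intermediate filaments and thin filaments, where they protect desmin, filamin C and titin during contraction. Some members, such as Hspb1, are made in many tissues, whereas Hspb2, Hspb3 and Hspb7 are largely restricted to heart and skeletal muscle.

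The windows around the transcription start are shown for 3 genes that rose with differentiation at 21% oxygen (Hspb3, Hspb7 and Hspb8) and for Hspb1, which did not pass the test there. Of the 7 genes, 5 had a window in the RefSeq table of build GRCm38.p6 (Hspb1, Hspb3, Hspb6, Hspb7 and Hspb8). Cryab and Hspb2 are named only. A window runs from 250 bases before to 50 bases after the start, 300 bases in all, and is written 5′ to 3′ along the gene. Capitals mark letters that match 1 of 5 motifs searched on both strands. These were the E-box CANNTG, bound by myogenic bHLH factors, the heat shock element core GAANNTTC or TTCNNGAA, the hypoxia response core ACGTG or GCGTG, the MEF2 site and the CArG box. An E-box of the form CACGTG also holds ACGTG. The windows are Hspb3 at chr13:113663627-113663926 on the minus strand, Hspb7 at chr4:141420529-141420828 on the plus strand, Hspb8 at chr5:116422815-116423114 on the minus strand and Hspb1 at chr5:135887669-135887968 on the plus strand.
Hspb3: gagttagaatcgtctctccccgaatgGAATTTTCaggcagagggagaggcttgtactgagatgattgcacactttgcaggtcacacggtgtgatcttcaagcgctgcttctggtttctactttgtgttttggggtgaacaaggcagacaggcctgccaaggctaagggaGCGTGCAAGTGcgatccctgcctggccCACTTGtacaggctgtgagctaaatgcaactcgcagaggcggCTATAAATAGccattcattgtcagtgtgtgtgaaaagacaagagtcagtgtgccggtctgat
Hspb7: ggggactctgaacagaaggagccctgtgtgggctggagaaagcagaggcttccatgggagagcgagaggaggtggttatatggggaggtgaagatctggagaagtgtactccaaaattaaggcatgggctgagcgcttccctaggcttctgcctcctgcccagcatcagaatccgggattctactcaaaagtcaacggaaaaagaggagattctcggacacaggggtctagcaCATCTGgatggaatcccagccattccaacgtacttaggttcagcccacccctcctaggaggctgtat
Hspb8: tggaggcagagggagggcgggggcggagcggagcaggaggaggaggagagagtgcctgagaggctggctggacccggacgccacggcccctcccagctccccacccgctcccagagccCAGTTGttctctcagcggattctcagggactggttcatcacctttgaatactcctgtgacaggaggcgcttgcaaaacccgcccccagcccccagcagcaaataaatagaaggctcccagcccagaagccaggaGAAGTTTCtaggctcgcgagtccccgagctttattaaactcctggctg
Hspb1: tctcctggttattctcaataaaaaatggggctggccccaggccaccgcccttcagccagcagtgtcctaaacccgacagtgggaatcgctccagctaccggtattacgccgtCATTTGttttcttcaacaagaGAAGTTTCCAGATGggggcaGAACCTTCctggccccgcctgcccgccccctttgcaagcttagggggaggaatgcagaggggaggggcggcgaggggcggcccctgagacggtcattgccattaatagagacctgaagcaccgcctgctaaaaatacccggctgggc

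The Hspb3 window held E-boxes at -76 and -54 (counted from the start site), a MEF2 site at -12, a heat shock core at -224 and a hypoxia response core at -81 that adjoins the first E-box. The Hspb7 window held 1 E-box, CATCTG at -17. The Hspb8 window held 1 E-box, CAGTTG at -132, and 1 heat shock core, GAAGTTTC at 3 (3 bases into the transcript). The Hspb1 window held 2 heat shock cores, GAAGTTTC at -117 and GAACCTTC at -97, and 2 E-boxes, at -138 and -109. Hspb6 had 2 windows, with hypoxia response cores at -111 and -94 in the first and at -14 in the second, which also held a heat shock core at -120. Across the 32851 windows of the table, 72.3% held an E-box, 15.1% a heat shock core, 43.8% a hypoxia response core, 3.19% a MEF2 site and 1.63% a CArG box. A match is a run of letters and was not tested for binding.

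Libraries summed to 480018 to 534167 FPKM (fragments scaled to transcript length and to the mapped fragments of the library) and listed 14917 to 15672 genes above 0. Absolute depth is unknown. Relative depth was read from the most common ratio of low values to the same genes in differentiation medium at 2% oxygen, replicate A. It was 0.634 to 1, and the shallowest and the deepest library were replicates B and A of differentiation medium at 2% oxygen. Replicates A and B correlated across the 12389 tested genes at 0.958 in that group and at 0.975 to 0.983 in the other 3. Of 8 myogenic markers, 7 rose with differentiation at 21% oxygen and 8 were lower at 2% than at 21% oxygen in differentiation medium. Their summed level in differentiation medium was 5958 and 5963 FPKM at 21% and 33.8 and 31.5 FPKM at 2%. In growth medium it was 216 and 173 FPKM at 21% and 38.9 and 41.0 FPKM at 2%. With the change of medium at 2%, 4 markers were higher and 1 lower, beside 23.3% and 17.6% of all tested genes. Differentiation at 21% or 2% here names the change of medium, and at 2% the summed marker level did not rise. Mef2c reached the 1 FPKM needed for testing in differentiation medium at 21% alone, so its change is in part given by that filter. The 4 oxygen response markers (Vegfa, Slc2a1, Ldha and Car9) all rose at 2% oxygen in growth medium. In differentiation medium 3 of them rose and Vegfa did not pass the test (log2 change 0.19, adjusted p = 0.301, -0.02 with median-of-ratios scaling, and 0.42, adjusted p = 0.0036, without differentiation medium at 2% replicate B). The 11 markers of other cell types (fat, cartilage, blood, endothelium and epithelium) summed to 0.455 to 1.74 FPKM per library, with 1 value above 1 FPKM (Fabp4 at 1.18 in growth medium at 2% oxygen, replicate B) and the fat cell gene Plin1 at 0 in all 8 libraries.

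In differentiation medium at 21% oxygen 5 of the 7 small heat shock genes rose, as did 25.5% of all tested genes. At 2% oxygen Cryab rose with the change of medium, as did 23.3% of all tested genes, and the other 6 did not pass the test. Between oxygen concentrations, Hspb1, Hspb2 and Cryab fell at 2% in growth medium, where 28% of all tested genes fell. In differentiation medium 6 genes fell at 2% and Hspb6 rose, beside 27.7% and 37.5% of all tested genes. In these bulk samples, fewer cells that make a transcript and less RNA per cell cannot be told apart.

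**Figure D1:**
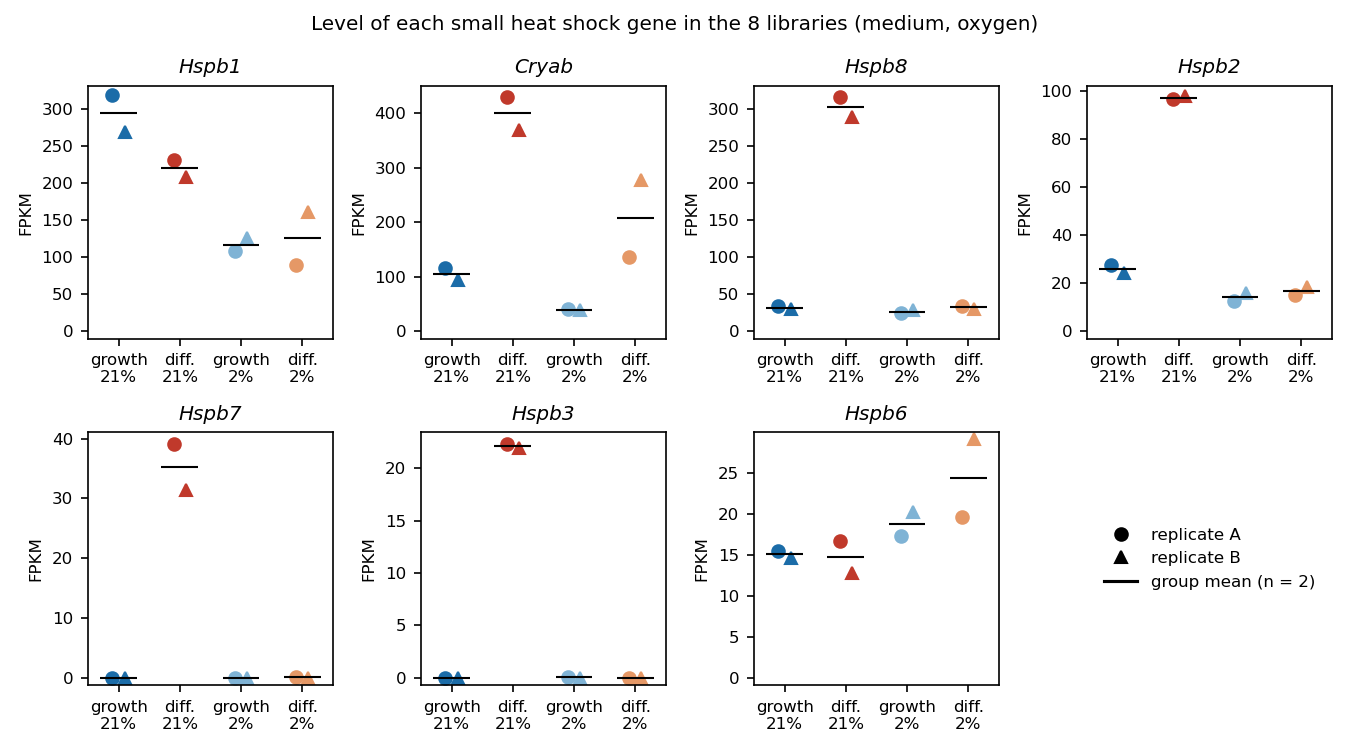
FPKM of each of the 7 genes (vertical axes start near 0 and differ between panels) in the 4 groups of medium and oxygen. Circles are replicate A, triangles replicate B, and bars the group mean. Hspb2, Hspb3, Hspb7 and Hspb8 stand high in differentiation medium at 21% oxygen alone, Cryab is also high in differentiation medium at 2%, and Hspb1 is at 208 to 319.8 FPKM at 21% against 89.3 to 161 FPKM at 2%.

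Changes were fitted as log2(FPKM + 1) with limma over all 12389 genes, and a gene counts as changed at an adjusted p under 0.05. All 7 genes passed the filter of a group mean of at least 1 FPKM, but Hspb3 and Hspb7 passed through differentiation medium at 21% oxygen alone, so that their difference from the other groups is in part given by the filter. For differentiation at 21% oxygen, 5 of 7 were higher and 0 lower, where 25.5% of all tested genes were higher and 41% lower. At 2% oxygen 1 of 7 was higher and 0 lower, against 23.3% and 17.6% of all genes. For 2% oxygen in growth medium 0 were higher and 3 lower, against 13.5% and 28%. For 2% oxygen in differentiation medium 1 was higher and 6 lower, against 37.5% and 27.7%. The interaction is the differentiation change at 2% minus that at 21%. It was negative and past the threshold for 4 genes and positive for 0, against 18.7% and 35.4% of all genes. The median log2 change of the 7 genes was 1.93, 0.22, -0.27, -2.48 and -1.65 in these 5 comparisons, beside -0.20, 0.07, -0.14, 0.15 and 0.27 for all tested genes. The comparisons share libraries and are not independent of each other.

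Scaling the libraries by median of ratios moved the median of all genes to 0.03, 0.03, -0.04, -0.03 and -0.01. The share of all calls that were higher moved with it, from 38.4% to 53.6% for differentiation at 21%, from 32.6% to 43.4% for 2% oxygen in growth medium (49.3% with upper-quartile scaling), from 57.5% to 46.5% for 2% oxygen in differentiation medium, and from 65.5% to 47.3% for the interaction (53.6% with upper-quartile scaling). Every call on the 7 genes kept its direction and its side of the threshold under both scalings.

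**Figure D2:**
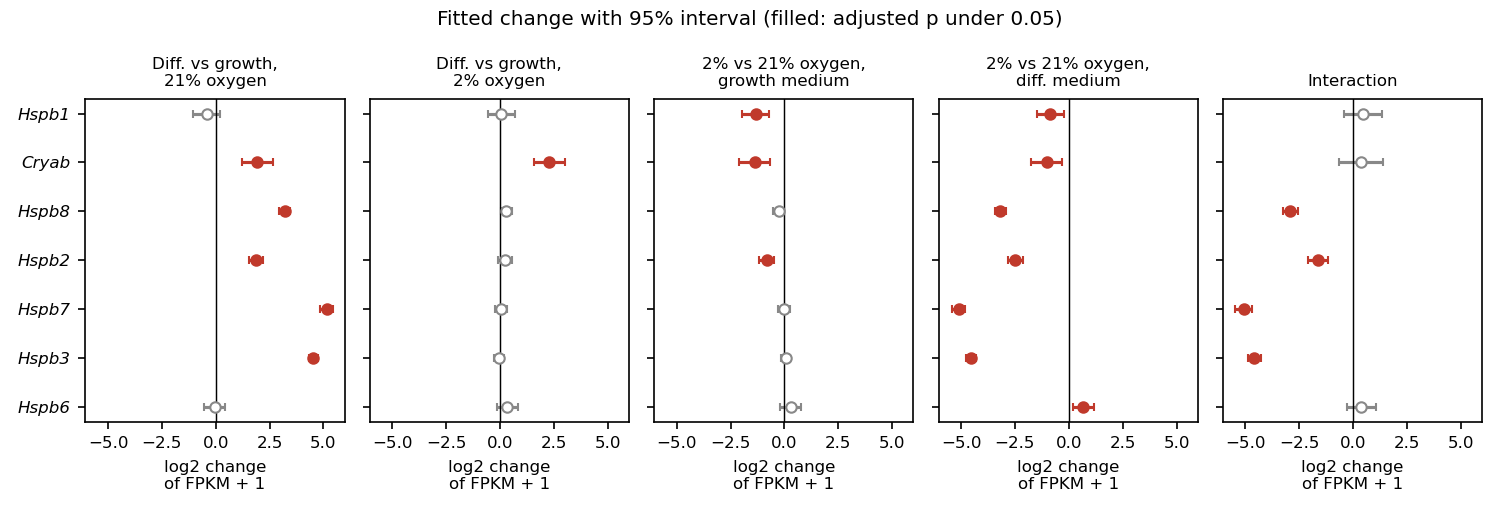
Fitted log2 change of FPKM + 1 (horizontal axis) of each gene in the 5 comparisons, with 95% intervals. Filled points have an adjusted p under 0.05. Hspb3, Hspb7 and Hspb8 move by 3.21 to 5.14 with differentiation at 21% oxygen and lie between -0.06 and 0.29 at 2%, while Cryab moves by 1.93 and 2.29.

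Hspb7, a cardiovascular and skeletal muscle member that binds filamin C and thin filaments, was close to absent outside 1 group. It stood at 39.1 and 31.5 FPKM in the 2 libraries of differentiation medium at 21% oxygen. Its level was 0.0242 and 0.0187 FPKM in growth medium at 21%, 0.0189 and 0 in growth medium at 2%, and 0.0672 and 0.0266 FPKM in differentiation medium at 2%. The 2 groups in differentiation medium did not overlap. Corrected for relative depth, the low values were 1.00, 1.00, 1.00, 0, 4.00 and 1.00 times the smallest above 0, called a step. They rest on about 1 to 4 fragments if that step is 1 fragment, and the order of these low groups cannot be read. On the same assumption the high values were 1593 and 1611 steps. The fitted change with differentiation at 21% was 5.14 (SE 0.12, adjusted p = 3.46e-07), and at 2% it was 0.05 (95% interval -0.24 to 0.34, adjusted p = 0.766). The difference between oxygen concentrations in differentiation medium was -5.11 (SE 0.12, adjusted p = 3.27e-07), and the interaction -5.09 (SE 0.17, adjusted p = 3.34e-06). Hspb7 passed the 1 FPKM filter through differentiation medium at 21% oxygen alone, so these differences are in part given by the filter. For a gene this low the size depends on the pseudocount: with 0.1 in place of 1 the change at 21% was 8.18.

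Hspb3, which pairs with Hspb2 in a muscle-specific complex, was likewise high in that group alone. It stood at 22.3 and 22.0 FPKM in differentiation medium at 21% oxygen. It was listed at 0 in both libraries of growth medium at 21% and of differentiation medium at 2%, and at 0.0842 and 0 FPKM in growth medium at 2%. If the 0.0842 is 1 fragment, 3 fragments correspond to 0.225 to 0.356 FPKM across the libraries, and a level under that may be listed at 0 by counting error alone. No fold is given against groups listed at 0. The fitted change with differentiation was 4.53 at 21% (SE 0.09, adjusted p = 2.11e-07) and -0.06 at 2% (adjusted p = 0.643). In differentiation medium the change with 2% oxygen was -4.53 (SE 0.09, adjusted p = 1.74e-07) and the interaction was -4.59 (SE 0.13, adjusted p = 2.13e-06). Hspb3, too, passed the filter through differentiation medium at 21% oxygen alone, so these differences are in part given by the filter. With a pseudocount of 0.1 the change at 21% was 7.80.

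Hspb8 forms the chaperone-assisted selective autophagy complex with Bag3, Hspa8 and the ubiquitin ligase Stub1. Unlike Hspb3 and Hspb7, it was already made in growth medium. Its level was 33.7 and 30.0 FPKM in growth medium at 21%, 316 and 288 FPKM in differentiation medium at 21%, 24.6 and 28.0 FPKM in growth medium at 2%, and 34.3 and 30.5 FPKM in differentiation medium at 2%. The mean of 302.4 ± 19.7 FPKM (SD, n = 2) in differentiation medium at 21% was 9.50 times that of growth medium at 21% and 9.33 times that of differentiation medium at 2%. Differentiation medium at 2% and growth medium at 21% overlapped. The fitted change with differentiation was 3.21 at 21% (SE 0.11, adjusted p = 1.53e-06). At 2% it was 0.29, with an interval of 0.04 to 0.55 and an adjusted p of 0.0683, and leaving out differentiation medium at 2% replicate B gave 0.37 with an adjusted p of 0.044. In growth medium the 2% libraries lay below the 21% libraries without overlap, but the change of -0.27 (interval -0.52 to -0.01) had an adjusted p of 0.0879. The change with 2% oxygen in differentiation medium was -3.18 (SE 0.11, adjusted p = 1.41e-06), and the interaction was -2.92 (SE 0.15, adjusted p = 2.28e-05).

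Hspb2 binds the myotonic dystrophy kinase Dmpk and lies next to Cryab. Its level was 27.5 and 24.3 FPKM in growth medium at 21%, 96.6 and 97.7 FPKM in differentiation medium at 21%, 12.5 and 15.9 FPKM in growth medium at 2%, and 15.1 and 18.2 FPKM in differentiation medium at 2%. The 21% groups did not overlap with each other or with a 2% group, while the 2% groups overlapped. The means were 25.9 ± 2.25, 97.2 ± 0.772, 14.2 ± 2.42 and 16.7 ± 2.17 FPKM in the same order (SD, n = 2). Hspb2 rose 3.75-fold with differentiation at 21% (log2 change 1.87, SE 0.14, adjusted p = 4.37e-05). At 2% the log2 change was 0.22 (95% interval -0.11 to 0.55, adjusted p = 0.251). At 2% oxygen it fell in both media, by a factor of 1.83 in growth medium (log2 change -0.83, SE 0.14, adjusted p = 0.00398) and of 5.84 in differentiation medium (log2 change -2.48, SE 0.14, adjusted p = 1.2e-05). The interaction was -1.65 (SE 0.20, adjusted p = 0.000659).

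Cryab, or alpha-B-crystallin, is an abundant chaperone of desmin and titin. It was the member that rose with the change to differentiation medium at both oxygen concentrations. Its level was 116 and 94.3 FPKM in growth medium at 21%, 431 and 370.5 FPKM in differentiation medium at 21%, 39.8 and 38.5 FPKM in growth medium at 2%, and 137 and 278 FPKM in differentiation medium at 2%. No pair of groups overlapped, and the order was differentiation medium at 21%, differentiation medium at 2%, growth medium at 21% and growth medium at 2%. The rise was 3.82-fold at 21% (log2 change 1.93, SE 0.30, adjusted p = 0.00138) and 5.30-fold at 2% (log2 change 2.29, SE 0.30, adjusted p = 0.00202). The interaction was 0.36 with an interval of -0.66 to 1.39 (adjusted p = 0.499), which does not show that the rises were alike. It was 0.87 (adjusted p = 0.00846) without differentiation medium at 2% replicate A, and -0.14 (adjusted p = 0.535) without replicate B.

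At 2% oxygen Cryab fell by a factor of 2.68 in growth medium (log2 change -1.39, SE 0.30, adjusted p = 0.0112) and of 1.93 in differentiation medium (log2 change -1.03, SE 0.30, adjusted p = 0.022). Both calls were lost in some fits that left a compared group with 1 library. In growth medium the size stayed between -1.25 and -1.42 in those fits. The growth medium change was -1.25 (adjusted p = 0.0736) without growth medium at 21% replicate A, -1.42 (adjusted p = 0.0576) without growth medium at 2% replicate A and -1.37 (adjusted p = 0.0627) without replicate B of that group. The differentiation medium change was -0.92 (adjusted p = 0.116) without differentiation medium at 21% replicate A and -1.14 (adjusted p = 0.0697) without replicate B, and with the libraries of these groups fitted alone it was -1.03 (adjusted p = 0.0779). Leaving out differentiation medium at 2% replicate A gave -0.52 (adjusted p = 0.0205), and leaving out replicate B gave -1.54 (adjusted p = 0.000173).

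Hspb1, the mouse Hsp25, binds actin filaments and is made in many cell types. Its level was 319.8 and 269 FPKM in growth medium at 21%, 232 and 208 FPKM in differentiation medium at 21%, 108 and 125 FPKM in growth medium at 2%, and 89.3 and 161 FPKM in differentiation medium at 2%. Every library at 21% lay above every library at 2%. Hspb1 fell at 2% oxygen by a factor of 2.53 in growth medium (log2 change -1.33, SE 0.26, adjusted p = 0.00749) and of 1.75 in differentiation medium (log2 change -0.87, SE 0.26, adjusted p = 0.0238). In growth medium the call was lost without growth medium at 21% replicate A (-1.20, adjusted p = 0.0538) or growth medium at 2% replicate A (-1.22, adjusted p = 0.0537). In differentiation medium it was lost without differentiation medium at 21% replicate A (-0.79, adjusted p = 0.118) or replicate B (-0.94, adjusted p = 0.078), and with those groups fitted alone (-0.87, adjusted p = 0.0757). It was -0.44 (adjusted p = 0.0356) without differentiation medium at 2% replicate A and -1.29 (adjusted p = 0.000364) without replicate B.

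With differentiation at 21% the Hspb1 libraries did not overlap, and the log2 change was -0.42 with an interval of -1.04 to 0.21 (adjusted p = 0.197). It passed the threshold with the libraries at 21% fitted alone (-0.42, adjusted p = 0.019), and without differentiation medium at 2% replicate A (adjusted p = 0.0198) or replicate B (adjusted p = 0.0173). At 2% the change was 0.05 (interval -0.58 to 0.67, adjusted p = 0.911), 0.47 (adjusted p = 0.0385) without differentiation medium at 2% replicate A and -0.38 (adjusted p = 0.0777) without replicate B. The interaction was 0.46 (interval -0.42 to 1.35, adjusted p = 0.322), and 0.89 (adjusted p = 0.0078) without differentiation medium at 2% replicate A.

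Hspb6, or Hsp20, is a phosphorylated member best known from smooth and cardiac muscle. It was the member that was higher at 2% oxygen in differentiation medium. Its level was 15.5 and 14.6 FPKM in growth medium at 21%, 16.7 and 12.8 FPKM in differentiation medium at 21%, 17.2 and 20.2 FPKM in growth medium at 2%, and 19.6 and 29.1 FPKM in differentiation medium at 2%. The rise in differentiation medium was 1.65-fold (log2 change 0.67, SE 0.20, adjusted p = 0.0241), and the change was 0.48 (adjusted p = 0.0464) with median-of-ratios scaling. That call was lost without differentiation medium at 21% replicate B (0.49, adjusted p = 0.152), without differentiation medium at 2% replicate B (0.40, adjusted p = 0.0769), and with those groups fitted alone (0.67, adjusted p = 0.0767). In growth medium the 2% libraries lay above the 21% libraries, with a log2 change of 0.30 (interval -0.19 to 0.78, adjusted p = 0.284). With differentiation the change was -0.04 at 21% (interval -0.53 to 0.45, adjusted p = 0.881), with the sign turned under median-of-ratios scaling (0.22) and upper-quartile scaling (0.09). At 2% it was 0.34 (interval -0.15 to 0.83, adjusted p = 0.229), and 0.61 (adjusted p = 0.0274) without differentiation medium at 2% replicate A and 0.06 (adjusted p = 0.789) without replicate B. The interaction was 0.38 (interval -0.31 to 1.07, adjusted p = 0.306), and 0.65 (adjusted p = 0.0424) without replicate A of that group.

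The 2 libraries of differentiation medium at 2% oxygen differed in several of these genes. Replicate B exceeded replicate A by a factor of 2.03 for Cryab, 1.81 for Hspb1, 1.48 for Hspb6 and 1.20 for Hspb2. Hspb8 was 1.12 times higher in replicate A. These are deposited values, not divided by the median-of-ratios scaling factors, which were 0.975 for replicate A and 1.09 for replicate B. All 5 proliferation markers were also higher in replicate B: their summed level was 258 FPKM there and 109.6 FPKM in replicate A. The factors were 6.81 for Mki67, 6.71 for Ccnb1, 4.76 for Top2a, 4.50 for Cdk1 and 1.73 for Pcna. In the other groups the summed level differed less between replicates, at 201 and 222 FPKM in growth medium at 21%, 73.8 and 77.4 FPKM in differentiation medium at 21% and 144 and 129 FPKM in growth medium at 2%. The part of this difference in the values of Cryab, Hspb1 and Hspb6 was not tested.

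The summed level of the 7 genes was 512 and 432 FPKM in growth medium at 21%, 1153 and 1031 FPKM in differentiation medium at 21%, 202 and 228 FPKM in growth medium at 2%, and 295 and 518 FPKM in differentiation medium at 2%. Differentiation medium at 21% stood above all other groups, growth medium at 2% stood below them, and the 2 remaining groups overlapped. The sum came to 0.0389% to 0.235% of the FPKM of a library. Hspb1 took 62.4% and 62.3% of it in growth medium at 21% and 53.4% and 55.0% in growth medium at 2%, but 20.1% and 20.2% in differentiation medium at 21% and 30.2% and 31.2% at 2%. Cryab was the leading gene in both differentiation groups, with 37.4% and 35.9% at 21% and 46.4% and 53.8% at 2%. Hspb8 made up 27.4% and 28.0% of the sum in differentiation medium at 21% and 11.6% and 5.90% at 2%.

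**Figure D3:**
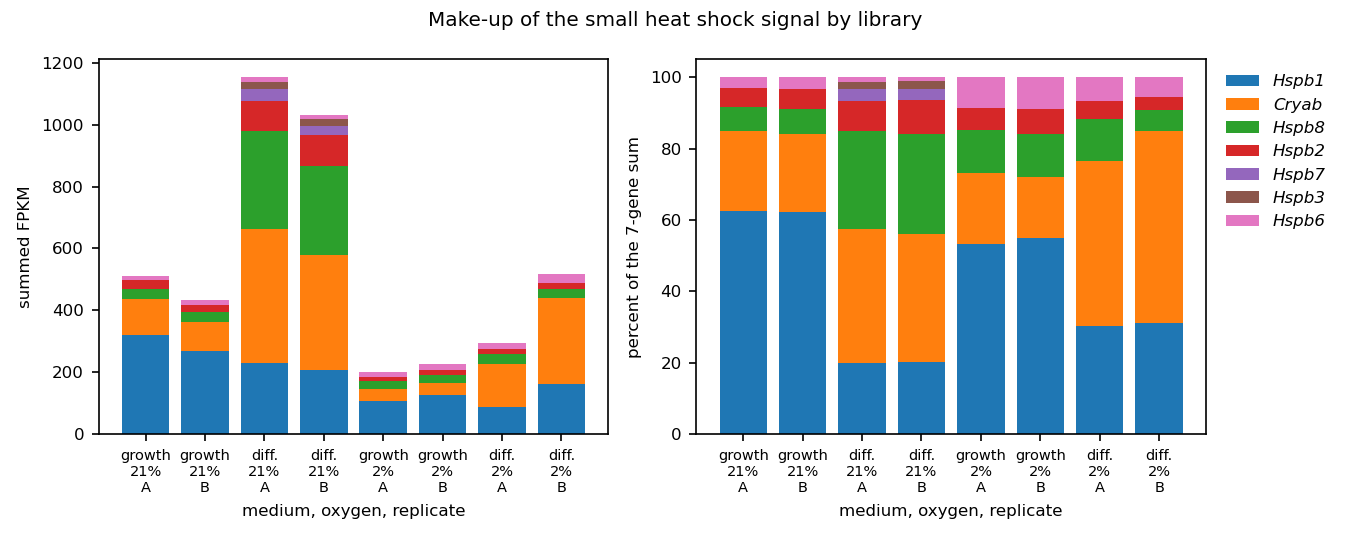
Stacked FPKM of the 7 genes in each library (left) and the same as percent of their sum (right), by medium, oxygen and replicate. Hspb1 makes up most of the sum in growth medium, and Cryab is the largest part in differentiation medium at both oxygen concentrations, with a large Hspb8 part at 21% alone.

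Within growth medium at 21% the order of levels was Hspb1, Cryab, Hspb8, Hspb2 and Hspb6. In differentiation medium at 21% it was Cryab, Hspb8, Hspb1, Hspb2, Hspb7, Hspb3 and Hspb6. In growth medium at 2% it was Hspb1, Cryab, Hspb8, Hspb6 and Hspb2, and in differentiation medium at 2% Cryab and Hspb1 overlapped at the top and Hspb8, Hspb6 and Hspb2 followed. In these 3 groups Hspb3 and Hspb7 came last, at 4 fragments or fewer if a step is 1 fragment, and their order cannot be read. Apart from Cryab and Hspb1 in differentiation medium at 2%, neighbours in the orders given did not overlap. Hspb6 thus stood below Hspb2 in both 21% groups and above it in both 2% groups.

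Cryab and Hspb2 are neighbours on chromosome 9, and in the RefSeq table of build GRCm38 the Hspb2 span lies within the Cryab span. Whether counting used strand is not given in the sources used here, so reads of one gene may be assigned to the other. Cryab over Hspb2 was 4.20 and 3.87 in growth medium at 21%, 4.46 and 3.79 in differentiation medium at 21%, 3.19 and 2.42 in growth medium at 2%, and 9.06 and 15.3 in differentiation medium at 2%. The values at 2% in differentiation medium lay above all others and those at 2% in growth medium below them. With 2 libraries against 2, an exact two-sided permutation test cannot go below 0.333, which it gave for every comparison but differentiation at 21%, where it gave 1.0. Hspb1 over Cryab was 2.71 to 3.26 in the 4 growth medium libraries and 0.537 to 0.652 in the 4 differentiation medium libraries.

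**Figure D4:**
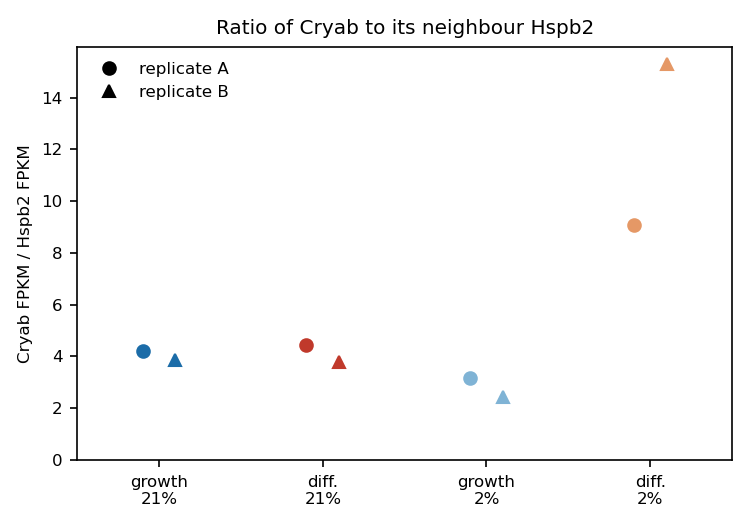
Ratio of Cryab FPKM to Hspb2 FPKM (linear vertical axis from 0) in each library by medium and oxygen. Circles are replicate A and triangles replicate B: the ratio is 2.42 to 4.46 in 3 groups and 9.06 and 15.3 in differentiation medium at 2% oxygen.

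The genes most like each member were found as the 3 other tested genes with the smallest root mean square difference of log2(FPKM + 1), each centred on its mean over the 8 libraries. The measure compares centred log2 values, so neither the levels nor the folds need match, and the added 1 draws weakly expressed genes together. Cldn2, the nearest to Hspb8, was at 9.48 and 8.26 FPKM in differentiation medium at 21% and at most 0.0434 FPKM elsewhere, a level far under that of Hspb8. For Hspb3 these included Mybpc1 (0.0638), a myosin-binding protein of slow muscle, and Myom1 (0.0982), an M-band protein. For Hspb7 they were Atcayos (0.0779), Igfn1 (0.0989) and Ankrd23 (0.112). For Hspb8 they were Cldn2 (0.125), Scn4a (0.133), the sodium channel of skeletal muscle, and Psg28 (0.142), and for Hspb2 Alpk2 (0.122), Zcchc5 (0.125) and Mief2 (0.129). Hspb1 was nearest to Pald1 (0.0926), Tcirg1 (0.117) and Zswim4 (0.119). Hspb6, whose own range was small, was nearest to 1700056E22Rik (0.0842), Gm20604 (0.101) and Kin (0.104). Cryab had no match as near: its nearest genes were Dhcr7 (0.152), an enzyme of cholesterol synthesis, Cycs (0.244) and Postn (0.299). Among the members, Hspb3 and Hspb7 were the closest pair (0.284), then Hspb2 and Hspb8 (0.490), while Cryab and its neighbour Hspb2 differed by 0.798.

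Of the rest of the small heat shock family, Cryaa and Hspb9 were listed at 0 in all libraries, and Odf1 was above 0 in 1 library. Hspb11, a cilium protein counted with the family by name, was at 54.2 and 53.4 FPKM in growth medium at 21%, 51.0 and 49.2 in differentiation medium at 21%, 58.2 and 57.6 in growth medium at 2%, and 40.9 and 40.2 in differentiation medium at 2%. It fell with differentiation at 2% (log2 change -0.50, adjusted p = 0.00175) and did not pass the test at 21% (-0.10, adjusted p = 0.204, and 0.17 with median-of-ratios scaling), and its interaction was -0.40 (adjusted p = 0.00935).

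The heat shock factors are the transcription factors of the heat shock response. The list held the factors Hsf1, Hsf2 and Hsf4 and the inhibitor Hsbp1. Of these 4 genes, 1 rose with differentiation at 21% (Hsf2) and 2 at 2% (Hsf2 and Hsbp1). None fell in either, and 25.5% and 23.3% of all tested genes rose. Hsf2 rose at 21% (log2 change 1.03, adjusted p = 0.000603) and at 2% (0.43, adjusted p = 0.0433). The call at 2% was lost with the 2% libraries fitted alone (adjusted p = 0.127), with no filter on low values (adjusted p = 0.0636), with upper-quartile scaling (0.35, adjusted p = 0.0562) and in 6 of the 8 fits without 1 library, among them those without growth medium at 2% replicate B (0.28, adjusted p = 0.231) and without differentiation medium at 2% replicate B (0.32, adjusted p = 0.116). Hsf1, the main activator of stress-induced chaperones, fell at 2% oxygen in growth medium (-0.59, adjusted p = 0.0375) and in differentiation medium (-1.03, adjusted p = 0.00218). The growth medium call was lost with upper-quartile scaling (-0.42, adjusted p = 0.0537), with no filter on low values (-0.59, adjusted p = 0.0628) and without any 1 library of growth medium at either oxygen concentration or of differentiation medium at 21% (-0.46 to -0.72, adjusted p = 0.0556 to 0.182). With differentiation at 21% the Hsf1 change was 0.47 (adjusted p = 0.0545). It passed the threshold with median-of-ratios scaling (0.74, adjusted p = 0.0035) and with upper-quartile scaling (0.60, adjusted p = 0.00847). The change of 0.47 also passed with the 21% libraries fitted alone (adjusted p = 0.00972) and with robust moderation (adjusted p = 0.0453). Hsbp1, an Hsf1-binding inhibitor, rose with differentiation at 2% (0.54, adjusted p = 0.0075), with -0.07 (adjusted p = 0.549) at 21%. The sign at 21% turned under median-of-ratios scaling (0.20), and the rise at 2% was not called without growth medium at 2% replicate A (0.52, adjusted p = 0.053). Hsf4 did not pass the test in any of the 5 comparisons with all libraries. Its change with differentiation at 2% passed in opposite directions without differentiation medium at 2% replicate A (0.90, adjusted p = 0.00145) and without replicate B (-0.46, adjusted p = 0.0184). The same held for 2% oxygen in differentiation medium (0.43 and -0.92) and for the interaction (0.83 and -0.53), and the change of -0.39 with 2% oxygen in growth medium passed without either of these libraries and with the growth medium libraries alone (adjusted p = 0.0117, 0.0114 and 0.0266).

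Bag3, the co-chaperone that joins Hspb8 to Hspa8, was at 37.8 and 31.9 FPKM in growth medium at 21%, 25.8 and 24.5 in differentiation medium at 21%, 24.8 and 24.2 in growth medium at 2% and 43.2 and 47.6 in differentiation medium at 2%. It fell with differentiation at 21% (log2 change -0.45, adjusted p = 0.0071) and rose at 2% (0.86, adjusted p = 0.00135), with an interaction of 1.31 (adjusted p = 0.000452). The fall at 21% was not called with median-of-ratios scaling (-0.18, adjusted p = 0.126) or without differentiation medium at 21% replicate B (-0.41, adjusted p = 0.0515). Hspa8 fell at 21% (-1.25, adjusted p = 0.000142), as did Stub1 (-0.78, adjusted p = 0.000878), and neither passed the test at 2% (-0.19 and 0.19), although Hspa8 did without differentiation medium at 2% replicate A (-0.36, adjusted p = 0.0147). Synpo2, which carries the complex to autophagosome formation at Z-discs, rose at 21% (2.35, adjusted p = 0.000167), with -0.16 (adjusted p = 0.625) at 2%, which was -0.56 (adjusted p = 0.00395) without differentiation medium at 2% replicate B and 0.24 (adjusted p = 0.0566) without replicate A. Of the 10 BAG and autophagy genes, 3 rose and 5 fell at 21% (4 and 2 with median-of-ratios scaling), and 2 rose and 0 fell at 2%. Of all tested genes 25.5% rose and 41% fell at 21%, and 23.3% and 17.6% at 2%. Bag1 (1.64) and Map1lc3a (1.29) rose at 21% and Map1lc3b (-1.23) fell there. In differentiation medium 5 of the 10 were higher and 3 lower at 2% oxygen, beside 37.5% and 27.7%.

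The cytoskeletal clients and partners of the small heat shock proteins numbered 11 listed genes. With differentiation at 21%, 7 rose and 3 fell (median log2 change 1.19), beside 25.5% and 41% of all tested genes. At 2% oxygen in differentiation medium 4 were higher and 7 lower than at 21% (median -2.74), beside 37.5% and 27.7%. Desmin (Des), the client of Cryab, was at 228 and 194 FPKM in growth medium at 21%, 484 and 474 in differentiation medium at 21%, 60.3 and 66.4 in growth medium at 2%, and 28.6 and 53.1 in differentiation medium at 2%. It rose with differentiation at 21% (1.19, adjusted p = 0.00605), and its change at 2% was -0.68 (adjusted p = 0.0743), which passed the threshold with median-of-ratios scaling (-0.73, adjusted p = 0.0351), with upper-quartile scaling (-0.78, adjusted p = 0.0279) and without differentiation medium at 2% replicate B (-1.12, adjusted p = 0.00101). Flnc, the filamin bound by Hspb7 and by the Hspb8 complex, rose at 21% (2.16, adjusted p = 5.05e-06) and fell at 2% (-0.58, adjusted p = 0.00449). Dmpk, the partner of Hspb2, likewise rose at 21% (0.86, adjusted p = 0.00861) and fell at 2% (-0.74, adjusted p = 0.0279). The Dmpk rise was not called without growth medium at 21% replicate B (0.75, adjusted p = 0.0554) or differentiation medium at 21% replicate A (0.84, adjusted p = 0.0532). Its fall was not called with the 2% libraries fitted alone (-0.74, adjusted p = 0.0873), without either library of growth medium at 2% (-0.78 and -0.70, adjusted p = 0.0959 and 0.13) or without either library of differentiation medium at 21% (-0.74 in both, adjusted p = 0.0612 and 0.0627). Actn2 (5.40), Ttn (4.94) and Myot (2.81) rose at 21%, and none of these 3 passed the test at 2%. All 3 passed the 1 FPKM filter through differentiation medium at 21% oxygen alone, so their rises are in part given by the filter. Vimentin (Vim) fell at both (-2.45 and -1.42).

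**Figure D5:**
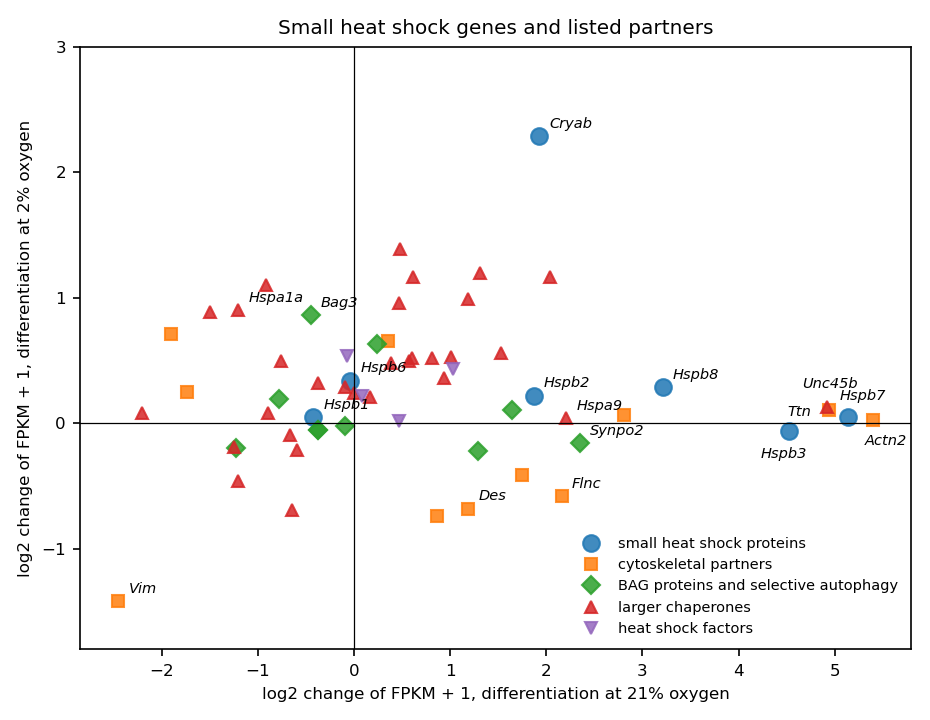
Log2 change of FPKM + 1 with differentiation at 21% oxygen (horizontal) and at 2% oxygen (vertical) of the 7 small heat shock genes and the listed partner genes, 1 point a gene. Hspb3, Hspb7, Unc45b, Ttn and Actn2 lie far to the right and near 0 on the vertical axis, while Cryab lies high on both. The genes far to the right passed the 1 FPKM filter through differentiation medium at 21% oxygen alone, so their place is in part given by the filter.

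Of the 30 listed larger chaperones and co-chaperones, 15 rose and 12 fell with differentiation at 21% (median 0.28), beside 25.5% and 41% of all tested genes. At 2%, 19 rose and 2 fell (median 0.49), beside 23.3% and 17.6%. Several of these rises and 1 of the falls were not called by limma with the 2% libraries fitted alone (adjusted p = 0.0526 to 0.115). Unc45b, the myosin chaperone of striated muscle, rose at 21% (4.92, adjusted p = 3.7e-07), with 0.13 (adjusted p = 0.412) at 2%. It passed the 1 FPKM filter through differentiation medium at 21% oxygen alone, so its rise is in part given by the filter. The mitochondrial Hspa9 (2.21) and Dnajb5 (2.04) also rose at 21%, and Hspa12a fell (-2.20). At 2% Stip1 (1.39, adjusted p = 0.000145), a link between Hsp70 and Hsp90, and Hsph1 (1.20, adjusted p = 0.000274) were among those that rose. The inducible Hsp70 genes Hspa1a and Hspa1b, near-identical copies whose reads the counting could split, fell at 21% (-1.20 and -1.50) and rose at 2% (0.90 and 0.89). In differentiation medium they were higher at 2% oxygen by 2.60 (adjusted p = 4.01e-06) and 2.88 (adjusted p = 1.26e-06), where 6 of the 7 small heat shock genes were lower. Over all 30, 13 were higher and 9 lower in that comparison, beside 37.5% and 27.7% of all tested genes. At 2% oxygen in growth medium 6 were higher and 10 lower, beside 13.5% and 28%. With median-of-ratios scaling these counts were 11 and 11, and 8 and 4.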

How the data were processed

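RNA-seq was made from total RNA of C2C12 cells with a stranded total RNA kit, per the labels' protocols, in 8 libraries. The chromatin and input libraries of the series were not analysed here. The authors deposited 1 gene table in FPKM, which are fragments normalised to transcript length and library size. Its name speaks of counts, but the values are not whole numbers. Per the submitters' processing notes, STAR 2.5.1b, Cufflinks 2.2.1 and build mm9 were used. The role of each tool, the annotation, the use of strand and any scaling are not given in the sources used here.

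Columns were matched to samples by medium, oxygen and replicate letter. The series' text calls A and B biological replicates, with no word on separate cultures, so p-values measure the spread between these libraries. From the deposited FPKM values, log2(FPKM + 1) was fitted with limma 3.58.1 (R 4.3.3, trended variance), with 4 group means over all 8 libraries, which leaves 4 residual degrees of freedom and 2.61 prior degrees of freedom. Genes with a mean of at least 1 FPKM in 1 or more groups were tested, 12389 of the 17914 above 0 in any library. Tests are two-sided, adjusted by Benjamini-Hochberg over all tested genes at 0.05. Adding 1 makes changes look smaller for weakly expressed genes. The fit was tested on simulated data.

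The 7 genes and all gene lists were chosen with earlier results of these data known. The genes named are the 7, the other family members, the heat shock factors and the marker genes. From each other list at most 4 called genes with the largest change per comparison are named, and Bag3, Hspa8, Stub1, Synpo2, Des, Flnc and Dmpk also where not called. Alternatives were a pseudocount of 0.1, no filter, a filter of 10 FPKM, 2 scalings, a replicate block, robust moderation, a fit of the compared libraries alone, and leaving out each library. Promoter windows are RefSeq sequences of GRCm38.p6, a later build than the authors' one. All 7 symbols were found in its gene table. Values of some listed or similar genes are not reported here.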

Additional observations from a re-analysis of the deposited data

Results flagged for a closer look

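For 4 of the 7 genes the change with differentiation differed between oxygen concentrations by limma's test of the difference, all in the negative direction. Of all tested genes, 18.7% had a negative and 35.4% a positive interaction past the threshold, so a called interaction was not particular to these genes. The interaction, on the log2(FPKM + 1) scale, was -1.65 for Hspb2, -4.59 for Hspb3, -5.09 for Hspb7 and -2.92 for Hspb8. Hspb3 and Hspb7 passed the 1 FPKM filter through differentiation medium at 21% alone, so their difference is in part given by the filter. In each of these 4 genes both libraries of differentiation medium at 21% oxygen lay above all 6 other libraries. The genes were picked by their interaction, so this order is in part given by the choice. The share of all tested genes with this order was not computed. The summed level of the 8 myogenic markers was also highest in those libraries, and its part in the 4 differences was not tested.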

How the results depend on the processing

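Of 549 values of the 7 genes under an alternative, 526 kept their side of the threshold, 14 lost a call and 9 gained one. Of the 526, 7 turned sign, all of them not called in either fit: 3 for Hspb6 with differentiation at 21%, 3 for Hspb1 with differentiation at 2% and 1 for the Cryab interaction. The count of the 7 genes called ranged over the fits without 1 library from 1 to 3 for differentiation at 2% oxygen, from 1 to 3 for 2% oxygen in growth medium, from 4 to 7 for 2% oxygen in differentiation medium and from 4 to 7 for the interaction. Over the same fits all genes called ranged from 2501 to 6529 for differentiation at 2% oxygen (5073 in the reported fit) and from 2997 to 6844 for 2% oxygen in growth medium (5135 in the reported fit). With only the compared libraries fitted, 3034 genes were called for differentiation at 2% oxygen, and 4 of the 7 genes for 2% oxygen in differentiation medium. Where a fit left a group with 1 library, that library was assumed to vary like the others. The correlations of deviations between same-lettered libraries of different groups ran from -0.166 to 0.042, so no shared replicate effect was seen. With 2 libraries a group this cannot tell whether same-lettered libraries were made as a set. A replicate block left 5, 1, 3, 7 and 4 of the 7 genes called in the 5 comparisons, as without it, and 7931, 4453, 4634, 7802 and 6273 of all genes. Among the heat shock factors it ended the calls of Hsf1 (-0.59, adjusted p = 0.0532) and Hsf2 (-0.43, adjusted p = 0.0685) for 2% oxygen in growth medium, and of Hsf2 for differentiation at 2% (0.43, adjusted p = 0.0677) and the interaction (-0.60, adjusted p = 0.0574). With 2 libraries a group and no counts, small changes of Hspb1, Hspb6 and Cryab were at the limit of what these data can show.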
